A study of Danio rerio with 6 samples.

Results

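Eomesa ChIP was set against input chromatin in high-sphere zebrafish blastulas, over the 6378 genomic regions listed as Eomesa peaks and over 1357018 windows of 1 kb on chromosomes 1 to 25. All embryos were of the AB strain and carried no mutation or treatment named in the labels. The Eomesa chromatin was precipitated with a polyclonal antibody made to whole zebrafish Eomesodermin, and the input was whole chromatin that had not been precipitated. The 4 libraries used here, 2 of Eomesa ChIP and 2 of input, belong to a series of 6, and each came from pooled whole embryos, so that cells of every position in the blastula were mixed. Each group was represented by 1 signal track, with no value per library, and every comparison below is therefore a description of those tracks, with no replicate check and no test.

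Eomesodermin is a T-box transcription factor, a protein that binds DNA through the domain it shares with Brachyury. Eomesa is the zebrafish homologue that the mother supplies to the egg, and it is known for its part in forming mesoderm and endoderm together with Nodal signalling, in which activated Smad proteins enter the nucleus and act with partners such as Foxh1. In ChIP-seq, fragments bound by the protein are enriched over input, so that a bound site appears as a local rise of the tag pileup.

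The study's own annotation marked a binding site of Foxh1, the forkhead partner of Nodal signalling, in some Eomesa peaks at developmental genes. A site was marked in 32 of the 72 peaks at genes of a mesendoderm and an ectoderm list. The paper reports Foxh1 sites in a minority of all Eomesa peaks and in a narrow majority of regions also bound by a second factor. Through such shared regions alone, 16 peaks of the mesendoderm list and 5 of the ectoderm list were named. The count of 32 therefore describes these peaks only, and whether it is high for Eomesa peaks was not tested. Some of the tallest peaks had a site. None was marked at the tallest of both lists, at irx7, or at the tallest peaks of foxh1, zic2b, stm and sp5l. For a selection of the marked regions the sites, of 11 bases each, are shown with the last 8 bases in capitals. They are the only DNA letters at hand for these regions. The place of each site within its peak is not given in the sources used here, and the coordinates, in the Zv9 genome build, are those of the peaks:
flh, Eomesa_peak984, chr13:14830671-14831053: ctcAATACACA
flh, Eomesa_peak985, chr13:14831737-14832177: ttcAATACACA
snai1a, Eomesa_peak628, chr11:26190252-26191174: ggtAATACACA
her5, Eomesa_peak1311, chr14:31411969-31412762: gggAATACACA
MIXL1, Eomesa_peak3075, chr20:44305202-44305792: ccgAATACACA
chd, Eomesa_peak1630, chr15:46180203-46180735: ctgAATAAACA
aplnrb, Eomesa_peak285, chr10:8709632-8710390: ttgAATAAACA
oep, Eomesa_peak266, chr10:1990009-1990529: agaAATAAACA
bon, Eomesa_peak3073, chr20:43758973-43759485: ctaAATAAACA
The first 5 ended in AATACACA and the last 4 in AATAAACA. Of the 32 sites at genes of the lists, 12 ended in AATACACA and 10 in AATAAACA, and the rest had other endings. Eomesa values of these peaks follow with those of the other gene peaks.

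Both tracks spanned 1412 Mb and gave the number of shifted tags over each stretch of 5 bp. The Eomesa track held about 12335042 tags of 38.9 bp and covered 15.5% of the bases, whereas the input track held about 18999490 tags of 132 bp and covered 54.8%. Tag length was measured from isolated runs of a single tag. The highest value was 78 tags in the Eomesa track and 264 tags in the input track, and 2 tag lengths came to 77.9 bp and 264 bp, so each track reached, and did not pass, a height of 2 tags for every base of tag length. To set the tracks side by side, each was divided by its own genome-wide mean, 0.340 tags for Eomesa and 1.78 tags for input, and values on this scale are called multiples. Ratios given as fold compare multiples. Heights in tags are not scaled, and a tag is a larger multiple in the Eomesa track than in the input track.

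Signal over the listed peaks was several times higher in the Eomesa track than in the input track. The mean Eomesa level of a peak had a median of 20.3 multiples (quartiles 14.1 and 31.2) against 2.36 multiples of input (quartiles 1.47 and 3.55). Eomesa over input had a median of 9.23-fold over all 6378 peaks (95% interval of the median 8.996 to 9.400) with quartiles of 5.65 and 16.4. This interval, like that of the neighbour distance below, comes from the spread between peaks and takes them as independent. Peaks that lie close together or look alike are not independent of each other. A ratio of at least 4-fold was found in 5587 peaks, or 87.6% (95% Wilson interval 86.8 to 88.4). Of all 1 kb windows, 2.12% passed that fold with 0.5 multiples added to both tracks. On that window scale, 52.1% of the windows that overlapped a peak passed it (3928 of 7533). Since the peaks had been called on this contrast, the shares of peaks and of their windows are a description of the list. At least 8-fold was found in 57.4% of peaks and at least 16-fold in 25.9%. Input was itself above its genome-wide mean in 5533 of the 6378 peaks, and 102 peaks held no input tag.

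**Figure D1:**
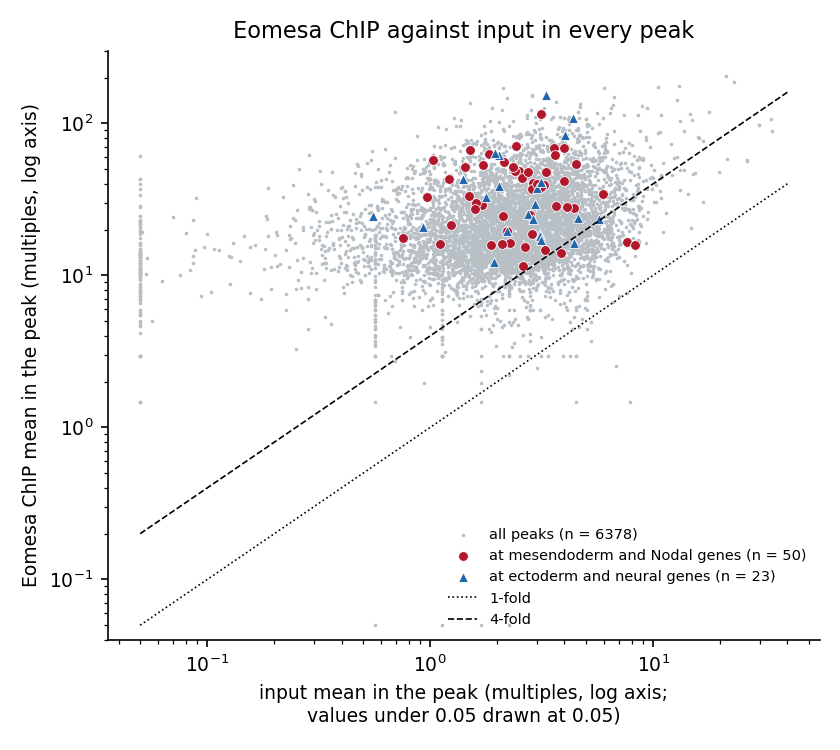
Mean Eomesa ChIP signal (vertical) against mean input signal (horizontal) in every listed peak, both in multiples of the track's genome-wide mean on log axes. Each grey point is a peak, circles and triangles mark peaks annotated with genes of the mesendoderm (MIXL1 not marked) and the ectoderm list, and 87.6% of all peaks lie on or above the dashed 4-fold line.

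The weakest ratios belonged to very short regions. In 107 peaks Eomesa was less than 2-fold over input, and 84 of these were narrower than 100 bp, a width that 758 of all peaks (11.9%) fell under. Eomesa was below input in 20 peaks. The list held 54 regions under 10 bp, of which 12 had a width of 0, and 4 regions held no Eomesa tag. Among peaks under 100 bp, 73.6% had a higher Eomesa value within 250 bp outside their edges than inside, against 12.9% of the wider peaks, and the median height was 6 tags inside and 9 tags just outside. The list held only regions that overlapped between the calls of both reactions, and whether the short regions are ends of such overlaps was not tested.

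Peaks were a median of 267 bp wide (quartiles 162 and 381, 99th percentile 881) and 14 tags high (quartiles 9 and 22). Height and width went together, with a Spearman rho of 0.68 over the 6378 peaks, as a description. The lowest 10% of peaks by height, at 6 tags or fewer, had a median width of 60.5 bp and a median ratio of 5.21-fold. The highest 10%, at 34 tags or more, had a median width of 494.5 bp and a median ratio of 19.5-fold. Input was also higher in taller peaks, and the median input height was 4 tags in the lowest and 12 tags in the highest of these classes. Near the ceiling of the track lay 46 peaks of at least 70 tags, 13 of them at 78.

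The mean profile over 6372 peaks rose to 52.4 multiples at the Eomesa summit, against 3.28 multiples of input at the same position. It fell to 26.9 multiples at 50 bp, 21.8 at 100 bp, 13.2 at 200 bp and 3.88 at 500 bp on either side, while input stood at 2.92, 2.45, 1.84 and 1.18 multiples. At 900 to 1000 bp away Eomesa still averaged 2.09 multiples and input 1.11 multiples. The profile was 84.6 bp wide at 50% of its rise. A narrow spike of about 1 tag length to each side stood on a broader shoulder, and aligning on interval centres in place of summits removed the spike, lowered the top to 33.0 multiples and gave a width of 317 bp. Each summit was the highest Eomesa value of its peak, so part of the spike and of its contrast with input was given by that choice. The input profile around the Eomesa summits was 251 bp wide. Over all peaks, both widths on summits lay near 2 tag lengths of their track, 77.9 bp for Eomesa and 264 bp for input. The Eomesa width differed with height, at 63.7 bp in the 3247 peaks of at most 14 tags and 119 bp in the 3125 taller peaks. Signal to the left and to the right of the summit came to a ratio of 0.998, so the mean shape was even on both sides.

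**Figure D2:**
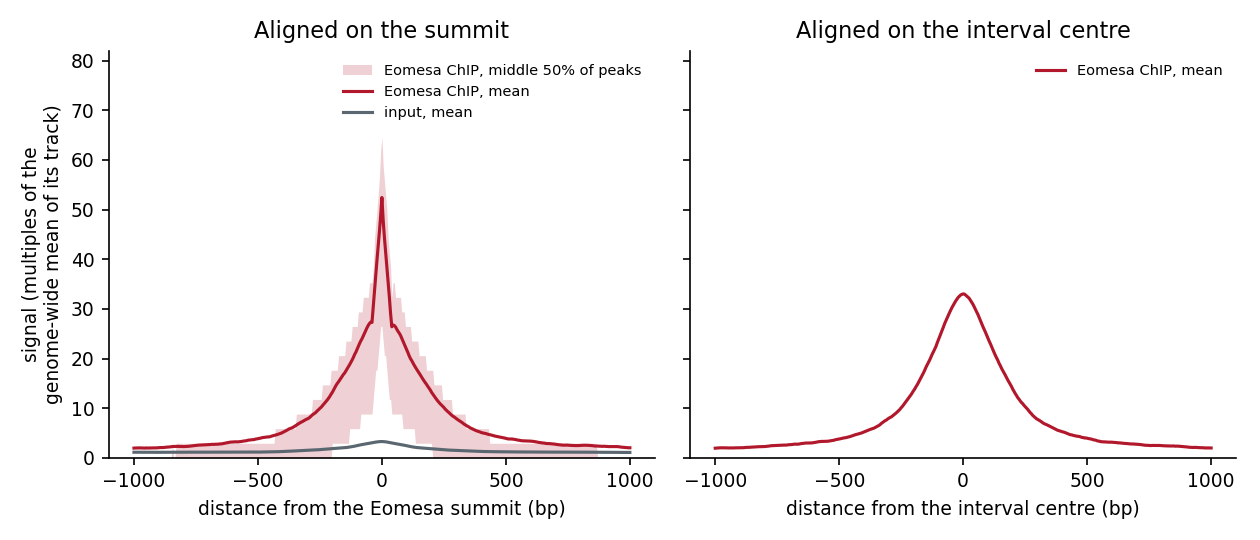
Mean Eomesa ChIP signal (red) and input signal (grey) around the peaks, in multiples of each track's genome-wide mean. The left panel is aligned on the highest Eomesa value of each peak, with the middle 50% of peaks shaded, and the right panel on interval centres, where the top is 33.0 multiples, against 52.4 on summits.

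Many peaks had more than a single summit. After smoothing over 25 bp, with a summit defined as a local maximum of at least 5 tags set off by a dip of at least 40% of the lower maximum, 2992 peaks (46.9%, 95% Wilson interval 45.7 to 48.1) had more than 1 summit. There were 461 peaks with none, 2925 with 1, 2066 with 2, 679 with 3 and 247 with 4 or more. In the peaks with 2 summits these lay a median of 140 bp apart (quartiles 100 and 190), and the lower reached a median of 68.3% of the higher. The share with more than 1 summit was 0.396% in peaks under 100 bp, 49.8% at 200 to 300 bp and 89.9% from 600 bp upwards, so the count of summits followed width. It also followed the definition, with 27.7% when a dip of 60% was required and 63.2% at a dip of 20%. The highest point lay a median of 40 bp from the interval centre and within 100 bp of it in 87.6% of peaks.

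**Figure D3:**
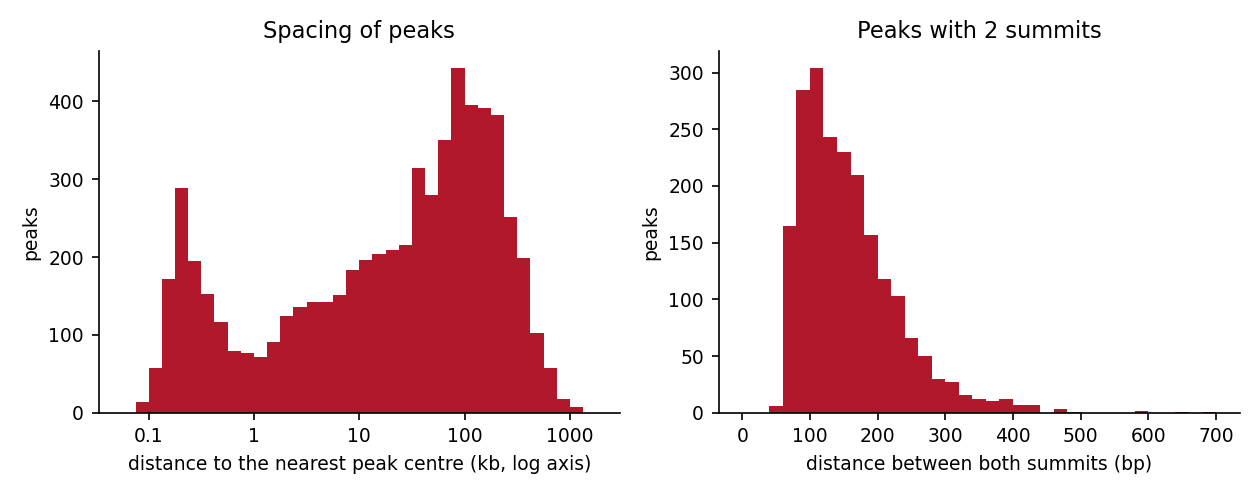
Number of peaks by distance to the nearest other peak centre (left, kb on a log axis, 6215 peaks on chromosomes 1 to 25) and by the distance between the summits of the 2066 peaks with 2 summits (right, bp). The left panel has a first hump below 1 kb and a second near 100 kb, and the median lies between them at 34.5 kb.

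On chromosomes 1 to 25, which held 6215 peaks, the nearest other peak centre lay a median of 34.5 kb away (95% interval of the median 32.1 to 37.3). The distances had 2 humps. A neighbour lay within 1 kb of 18.6% of peaks, within 10 kb of 35.3% and within 100 kb of 71.0%, and 114 peaks had none within 500 kb. Joining regions whose edges lay within 500 bp left 5642 regions and moved the median to 58.3 kb. Peaks with a neighbour within 10 kb had a median height of 14 tags and a median ratio of 9.73-fold, and peaks with none within 100 kb had 14 tags and 8.94-fold. The density ranged from 3.90 peaks per Mb on chromosome 16 to 5.39 per Mb on chromosome 3, and the longest stretch without a peak covered 4964 kb of chromosome 7, with 0.50 multiples of Eomesa and 0.53 multiples of input.

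Peaks joined by gaps of at most 10 kb formed 948 groups of at least 2 peaks and 18 of at least 5. The largest held 11 peaks within 16.2 kb of chromosome 4 (28002457 to 28018655). They were 67 to 173 bp wide and 15 to 57 Eomesa tags high (median 38), with input heights of 4 to 40 tags (median 13) and ratios of 3.07-fold to 27.2-fold. A group of 9 peaks lay on chromosome 8 at 31282100 to 31301359, with Eomesa heights of 3 to 22 tags and input heights of 0 to 16 tags. A group of 8 peaks at 54026382 to 54052338 of chromosome 8 had Eomesa heights of 7 to 30 tags and input heights of 3 to 15 tags. Its tallest member, Eomesa_peak5912, was the region annotated with tbx16, which encodes a T-box factor of the paraxial mesoderm.

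Some peaks were near copies of each other in both tracks. In the chromosome 4 group, Eomesa_peak4597 and Eomesa_peak4599 were both 173 bp wide, with 38 Eomesa tags and 40 input tags each, and Eomesa_peak4598 and Eomesa_peak4600 were both 78 bp wide, with 57 Eomesa tags and 26 input tags each. Among 36072 pairs of peaks of equal width (at least 50 bp), 84 pairs had heights within 10% or 1 tag and a correlation of at least 0.9 along the peak in both the Eomesa and the input track. They involved 168 peaks (2.63%), and 75 of the pairs lay on 1 chromosome, a median of 95.2 kb apart. Peaks at genes of the lists were among them. Eomesa_peak3073 at bon was paired with Eomesa_peak3074, 543 kb away on the same chromosome, both 513 bp wide with 50 Eomesa tags and 10 input tags each. Eomesa_peak527 at bmp7a, with 38 Eomesa tags and 8 input tags, was paired with Eomesa_peak528, with 39 and 8 tags, and Eomesa_peak1344 at foxa, with 33 and 5 tags, with Eomesa_peak1345, with 31 and 5 tags. The other bon peak, Eomesa_peak3072, and the MIXL1 peak, Eomesa_peak3075, were annotated with the same site, ccgAATACACA, and had 37 and 38 Eomesa tags with 10 input tags each. They were 611 and 591 bp wide and so lay outside the comparison of peaks of equal width. The alignment kept reads that fitted up to 2 places in the genome, and whether these pairs share their reads was not tested.

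At the regions that the study also assayed by ChIP-qPCR, Eomesa was 12.2-fold to 35.6-fold over input. They had been picked from the listed peaks, so that these ratios are a description. By qPCR the paper reports robust enrichment over control IgG at most but not all of them, including every region also bound by a second factor. The intervals given with the ratios are 95% intervals from the tags in the peak that cover counting error only. At flh, the floating head homeobox gene needed for notochord, Eomesa_peak984 had 26 Eomesa tags against 5 input tags at its highest point and a ratio of 33.9-fold (14.1 to 106). At ntla, the zebrafish Brachyury homologue, Eomesa_peak2492 (chr19:30638446-30638928) had 34 Eomesa tags against 15 input tags and 12.2-fold (7.76 to 20.3). The flh ratio was the larger of the pair and had the wider interval, and the intervals overlapped.

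Eomesa_peak1183 (chr13:54045393-54045875) lay at vox, a ventralising homeobox gene, and had 37 Eomesa tags against 15 input tags and 14.5-fold (9.13 to 23.2). Eomesa_peak3075 was annotated with MIXL1, a Mix-type homeobox gene, and had 38 Eomesa tags against 10 input tags and 16.9-fold (10.9 to 28.0). Both resembled the ntla region in height and ratio. No gene name was at hand for the other 3 assayed regions. The exception in the paper's qPCR was among these 3, and which it was is not given in the sources used here. Eomesa_peak2624 on chromosome 2 had 22 Eomesa tags against 5 input tags (30.2-fold, 15.1 to 65.1). Eomesa_peak3484 on chromosome 22 had 31 Eomesa tags against 4 input tags (35.6-fold, 14.9 to 112). Eomesa_peak5571 on chromosome 7 had 24 Eomesa tags against 8 input tags (17.5-fold, 10.3 to 31.9). All 7 were taller than the median peak of 14 tags.

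Genes were assigned from the study's annotation, which names genes with a start site within 10 kb of a peak centre. It was at hand in full for 1998 peaks, the first of the list, which lay on chromosomes 1 and 10 to 17. For the rest it was at hand only through regions also bound by a second factor. A list gene without a named peak may therefore still have a listed peak. Of 63 genes of mesendoderm formation and Nodal signalling, 29 had an annotated Eomesa peak, 11 of them only through those shared regions, and of 46 genes of ectoderm and neural plate, 14 did, 5 of them only through shared regions. The annotation names MIXL1 in capitals, and it was not matched to mixl1 of the mesendoderm list. Its peak is therefore missing from the counts and medians of that list. The paper counts genes with proximal Eomesa binding over its whole peak list. No share over all genes was at hand for the partial annotation used here, so these counts describe the annotation only. Among the 1998 fully annotated peaks, the mesendoderm list had 34 peaks at 18 genes, with a median height of 22.5 Eomesa tags and a median ratio of 17.0-fold, beside 14 tags and 9.47-fold over all 1998. The ectoderm list had 18 peaks at 9 genes, with a median height of 18.5 tags and a median ratio of 9.09-fold. The 854 annotated peaks near any gene had medians of 15 tags and 9.53-fold. Eomesa_peak706, with 23 tags and 8.95-fold, was counted in both lists, for il17rd and for hesx1. The ratio passed 4-fold in 32 of the 34 and in 17 of the 18, beside 89.0% of all 1998. A second peak within 10 kb was present for 25 of the 34 and 12 of the 18, beside 34.6% of all 1998 and 38.3% of the 854 near any gene. Among the peaks named only through shared regions, the lists stood in the other order, with medians of 30 tags and 12.6-fold in 16 peaks of the mesendoderm list and of 40 tags and 30.04-fold in 5 peaks of the ectoderm list. Peaks at the same gene share their locus and are not independent of each other. Some peaks were also annotated with genes outside the lists, such as Eomesa_peak1311 with her11 and Eomesa_peak123 with pcca. Only list genes are named here. The paper describes sp5l and fgfr1b of the ectoderm list as also expressed in some mesodermal structures.

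Among the fully annotated peaks, input had a median of 2.17 multiples in the mesendoderm list and 3.06 multiples in the ectoderm list, beside 2.34 over all 1998. Among the peaks named through shared regions it had 2.85 multiples in the mesendoderm list and 2.04 multiples in the ectoderm list, so that in both sources the list with the higher median input had the lower median ratio. Median Eomesa followed the order of the ratios. In the fully annotated peaks it was 31.3 multiples in the mesendoderm list and 23.7 multiples in the ectoderm list. In the peaks named through shared regions it was 39.9 multiples in the mesendoderm list and 61.4 multiples in the ectoderm list. The parts of Eomesa and of input in these ratios were not tested.

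Among genes of the Nodal pathway itself, oep, which encodes the EGF-CFC co-receptor of Nodal ligands, had a pair of peaks of 48 and 45 Eomesa tags with 5 input tags each (44.0-fold and 55.4-fold). At foxh1 the taller of its peaks, Eomesa_peak770, had 53 Eomesa tags against 24 input tags, and Eomesa_peak771, under 1 kb away, had 23 Eomesa tags against 5 input tags (12.0-fold and 18.7-fold). The Lefty proteins are secreted antagonists of Nodal. lft2 had peaks of 37, 22 and 20 Eomesa tags, with 5, 8 and 23 input tags and ratios of 34.4-fold, 13.3-fold and 5.77-fold. At lft1 the annotated peak had 8 Eomesa tags against 27 input tags and 1.92-fold, so that it fell among the peaks under 2-fold. This lft1 peak was named only through a shared region. Another listed peak lay 0.87 kb from it and was not assigned to lft1 in the partial annotation at hand.

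Genes of BMP and dorsoventral patterning included the tallest peak of the mesendoderm list, at chd, which encodes the BMP antagonist Chordin. Eomesa_peak1630 had 65 Eomesa tags against 15 input tags and 36.6-fold (23.7 to 57.1), and a second chd peak had 9 Eomesa tags against 5 input tags (7.71-fold). The BMP ligand genes bmp2b and bmp7a had peaks of 40 and 34 Eomesa tags (bmp2b) and 38 Eomesa tags (bmp7a), with input at 7, 14 and 8 tags. The ventralising repressor genes vox and vent shared a cluster of 5 peaks on chromosome 13, of 16 to 41 Eomesa tags against 5 to 18 input tags. At gsc, the homeobox gene of the organiser, the peaks were low, with 14 and 13 Eomesa tags against 19 and 8 input tags (2.17-fold and 7.17-fold).

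Among receptors and transcription factors of mesoderm and endoderm, Eomesa_peak628 at snai1a, a Snail-type repressor gene, had 56 Eomesa tags against 15 input tags (17.2-fold, 12.8 to 23.3) and was 923 bp wide with 2 summits. Eomesa_peak285 at aplnrb, an Apelin receptor gene, had 55 Eomesa tags against 17 input tags (19.1-fold, 13.6 to 27.3). Eomesa_peak3073 at bon, a Mix-type homeobox gene of the endoderm, had 50 Eomesa tags against 10 input tags (29.5-fold, 17.8 to 50.4). These peaks and those at chd, foxh1 and oep were the 6 tallest of the list.

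The 4 peaks at flh had 34, 29, 26 and 21 Eomesa tags against 7, 11, 5 and 12 input tags, and the 3 of the ligand gene wnt8a had 16, 11 and 6 Eomesa tags against 5, 6 and 5 input tags. The wnt8a ratios were 17.3-fold, 14.4-fold and 5.77-fold. The last was in a region only 16 bp wide, with an interval of 0.371 to 243. At sox32, the Sox gene that determines endoderm, the peak had 14 Eomesa tags against 8 input tags (6.54-fold). The sox32 peak was named only through a region shared with a second factor. Another listed peak lay 0.57 kb from it and was not assigned to sox32 in the partial annotation at hand. The annotated sox32 and wnt8a peaks thus lay near or below the median height of the whole list, well under the taller peaks of bon and chd.

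The ectoderm and neural list held the tallest peak of both lists. Eomesa_peak3710 (chr23:37902543-37903028) at irx7, an Iroquois homeobox gene, had 75 Eomesa tags against 14 input tags, 154 multiples of Eomesa against 3.29 multiples of input, and 46.8-fold (30.2 to 74.1). At her5, a Hairy-type repressor gene of the midbrain and hindbrain boundary, 3 peaks had 61, 33 and 19 Eomesa tags against 15, 5 and 10 input tags (24.8-fold, 30.6-fold and 9.23-fold). At zic2b, a zinc finger gene of the neural plate, Eomesa_peak123 had 44 Eomesa tags against 14 input tags (20.9-fold, 13.4 to 35.2). Eomesa_peak2345 at stm had 43 Eomesa tags against 10 input tags (30.04-fold, 19.2 to 47.5), and Eomesa_peak3665 at sp5l, an Sp-type zinc finger gene, had 40 Eomesa tags against 9 input tags (32.8-fold, 19.1 to 57.9).

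Ratios were lower at other genes of the ectoderm list. At foxi1, a forkhead gene of the ectoderm, the peak had 20 Eomesa tags against 23 input tags (4.13-fold). At sox3, a SoxB1 gene of the neural plate, it had 18 Eomesa tags against 17 input tags (5.15-fold). The lowest ratio of the list was at gata2a, which encodes a GATA zinc finger factor, where Eomesa_peak516 had 11 Eomesa tags against 10 input tags (3.68-fold). Another gata2a peak, Eomesa_peak513, had 13 Eomesa tags against 9 input tags (5.43-fold), and Eomesa_peak473 at fgfr1b, an FGF receptor gene, had 8 Eomesa tags against 5 input tags (6.32-fold). Eomesa_peak959 at six3a (5.79-fold) and Eomesa_peak474 at fgfr1b (6.07-fold) had 11 input tags each. Among these peaks of low ratio, only Eomesa_peak473 had an input height under the median of 7 over all peaks. Input is the denominator of the ratio, so high input was partly given by picking peaks of low ratio.

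**Figure D4:**
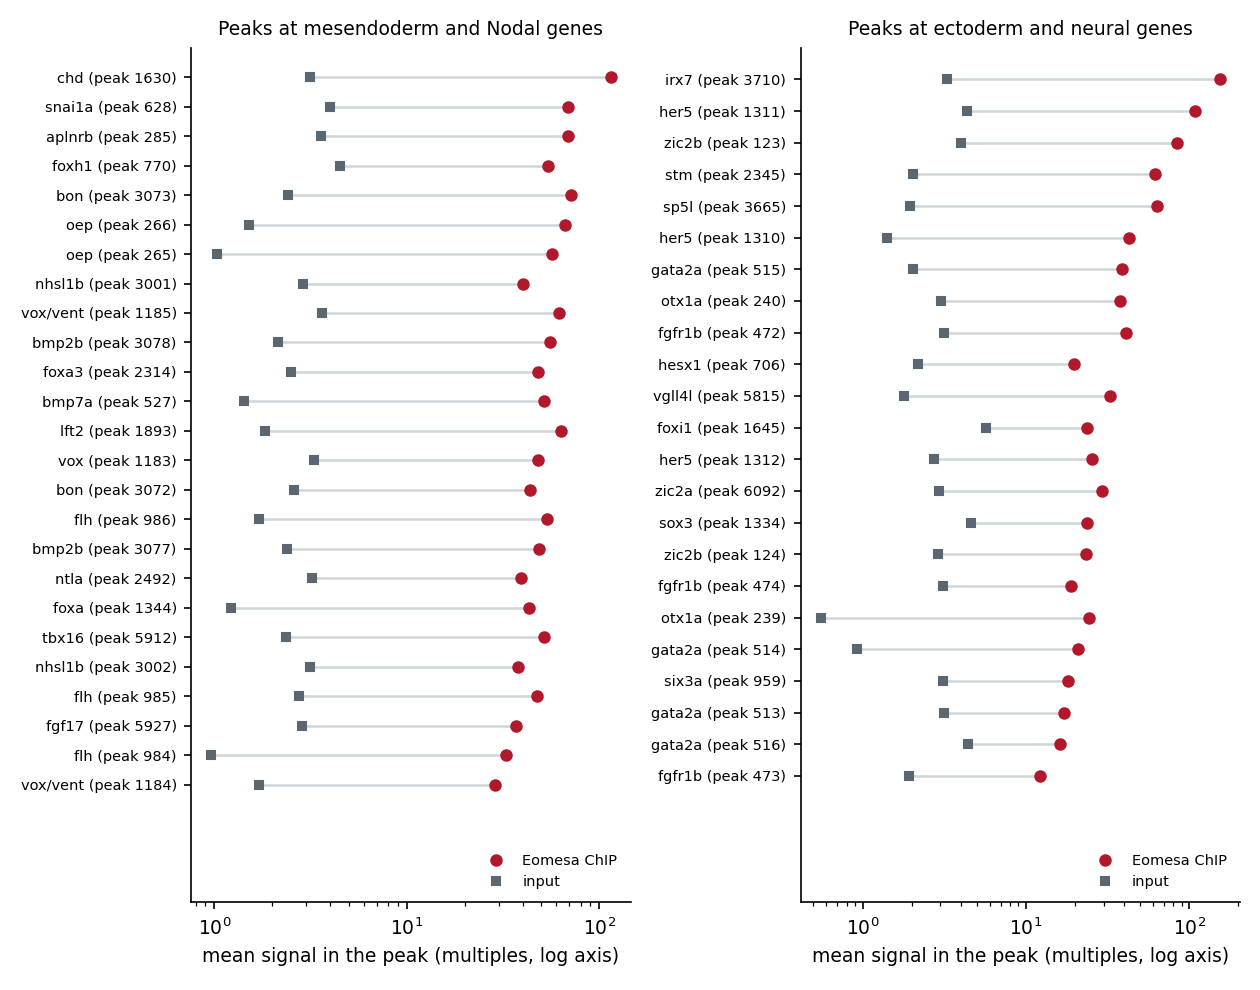
Mean Eomesa ChIP signal (red circles) and input signal (grey squares) in peaks annotated with genes of the mesendoderm and Nodal list (left, the 25 tallest, MIXL1 left out) and of the ectoderm and neural list (right, all 23), in multiples on a log axis, ordered by Eomesa height in tags. Eomesa lies to the right of input in every peak drawn, from 154 against 3.29 multiples at irx7 down to 12.1 against 1.92 multiples at the lowest fgfr1b peak.

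No gene name was at hand for the 3 peaks richest in summed Eomesa signal. Eomesa_peak4406 on chromosome 3 was 1770 bp wide with 7 summits, reached 78 Eomesa tags against 14 input tags and held 37.5-fold more Eomesa than input (30.3 to 47.1). Eomesa_peak4447 on chromosome 4 (1322 bp, 78 Eomesa tags against 41 input tags) was at 16.5-fold, and Eomesa_peak5951 on chromosome 9 (1038 bp, 78 Eomesa tags against 61 input tags) was at 9.63-fold. All 3 reached the ceiling of the Eomesa track. The widest region, Eomesa_peak3962 on chromosome 25, covered 2390 bp with 11 summits of at most 37 Eomesa tags against 14 input tags, and Eomesa_peak2350 on chromosome 19 covered 1681 bp with at most 36 Eomesa tags against 19 input tags.

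Among the 2018 peaks of at least 20 tags with some input, the extremes of the ratio had very low or very high input. Input is the denominator of the ratio by which these peaks were picked, so that extreme input was partly given by the choice. The highest, Eomesa_peak813 on chromosome 12, had 20 Eomesa tags against 1 input tag and 362-fold, with a lower counting bound of 32.6. Eomesa_peak2537 on chromosome 19 had 39 Eomesa tags against 1 input tag (216-fold, lower bound 43.6), and Eomesa_peak4876 on chromosome 5 had 22 Eomesa tags against 1 input tag (200-fold, lower bound 23.9). The lowest were Eomesa_peak3891 on chromosome 24, with 27 Eomesa tags against 39 input tags (1.83-fold), Eomesa_peak4700 on chromosome 5, with 49 Eomesa tags against 74 input tags (2.15-fold), and Eomesa_peak3105 on chromosome 20, with 47 Eomesa tags against 73 input tags (2.19-fold). Their Eomesa heights of 27 to 49 tags exceeded the median peak, and their input heights lay above the 99th percentile of 29 tags.

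Windows of 1 kb showed how the Eomesa signal was spread over the genome. The richest 1% of windows held 18.3% of the Eomesa signal, against 6.23% of the input signal in the richest 1% by input, and the richest 10% held 57.3% of Eomesa against 30.7% of input. Eomesa had a median of 0.35 multiples and a 99th percentile of 9.98 multiples, against 0.79 and 4.37 multiples for input, and 16.4% of windows held no Eomesa signal where 5.72% held no input. The Eomesa track held fewer and shorter tags than the input track, and the part of this in these differences was not tested. Over all windows the tracks had a Spearman rho of 0.53, as a description over neighbouring windows of 2 tracks. The windows that overlapped a peak, 7533 or 0.555% of the total, held 6.08% of the Eomesa signal and 0.931% of the input signal.

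Most windows rich in Eomesa overlapped no listed peak. With richness defined as at least 5 multiples of Eomesa and at least 4-fold over input, 21224 windows or 1.56% of the total were rich, and 17577 of them (82.8%) lay outside the peaks. They held 15.3% of the Eomesa signal and 2.04% of the input signal. These windows had been picked for high Eomesa and for Eomesa over input. Their shares and the medians below were thus partly given by the rule. Of the windows that overlapped a peak, 48.4% were rich. Moving the grid by 500 bp gave 17565 rich windows outside peaks (83.1%), and only 298 of the 17577 had a peak within 1 kb, so few of them adjoined a listed peak. Their median was 8.70 multiples of Eomesa against 1.17 multiples of input, and the median of the highest value was 15 Eomesa tags, next to 12.7 multiples of Eomesa, 1.37 multiples of input and 21 Eomesa tags in the rich windows with a peak.

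The share of windows with a peak rose with the Eomesa level and then levelled off. It was 1.64% at 2 to 5 multiples, 6.40% at 5 to 8, 13.0% at 8 to 15, 25.7% at 15 to 30, 29.99% at 30 to 60 and 26.3% (95% Wilson interval 21.4 to 31.9) in the 270 windows of at least 60 multiples. Of the 100 richest windows, 27 overlapped a peak. Input differed most between windows with a peak and those without at the highest levels, with medians of 3.04 and 9.15 multiples from 60 multiples of Eomesa upwards, and of 1.36 and 1.61 multiples at 5 to 8. Among windows with at least 8-fold more Eomesa than input, the share with a peak was 590 of 1136 (51.9%) at 15 to 30 multiples, 291 of 545 (53.4%) at 30 to 60 and 67 of 166 (40.4%) from 60 upwards. The list kept regions found in both reactions, and since it is not stated whether the track holds 1 or both, the part of that rule in these shares was not tested.

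**Figure D5:**
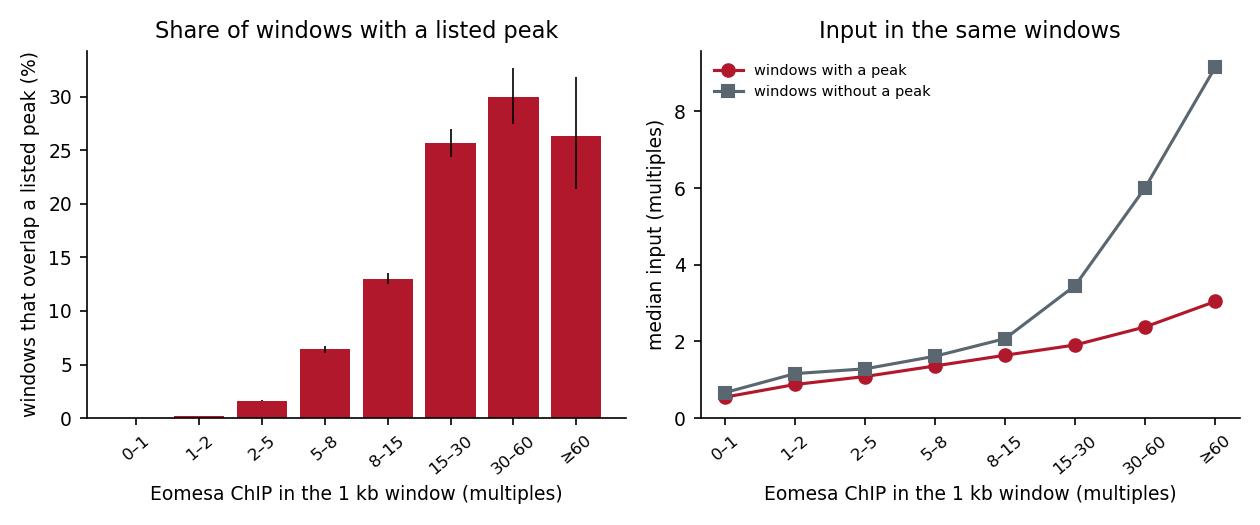
Share of 1 kb windows that overlap a listed peak (left, bars with 95% Wilson intervals, which cover counting error only) and median input of windows with and without a peak (right), by the Eomesa ChIP level of the window in multiples. The share stays at or below 29.99% in every class, and input in windows without a peak climbs to 9.15 multiples where that in windows with a peak reaches 3.04.

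Rich stretches with a peak and without one were of similar width. Adjoining rich windows formed 19634 stretches, of which 16464 held no peak, and 15619 of these were a single window. On the Eomesa track smoothed over 105 bp, stretches that rose to 10 to 20 tags were 245 bp wide at 50% of their height with a peak (n = 1475) and 240 bp without (n = 6972, medians). At 40 to 78 tags they were 318 bp wide with a peak (n = 226) and 278 bp without (n = 498). Input under the rise differed more, with medians of 4.61 multiples with a peak and 10.1 multiples without at 40 to 78 tags, and 2.41 and 2.21 multiples at 10 to 20 tags.

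The 5 richest windows outside peaks that met the rule all came close to the ceiling of the Eomesa track. The first, on chromosome 7 at 76092001 to 76093000, had 156 multiples of Eomesa against 3.07 multiples of input, 78 Eomesa tags against 11 input tags at the highest points, and no listed peak within 104 kb. The other windows had higher input. On chromosome 23 (46084001 to 46085000) Eomesa stood at 151 multiples against 13.9 multiples of input, on chromosome 12 (4188001 to 4189000) at 150 against 12.5, on chromosome 6 (58715001 to 58716000) at 148 against 25.01 and on chromosome 20 (48200001 to 48201000) at 134 against 12.4. The nearest listed peak lay 88.6 to 620 kb from each of these 4. The chromosome 7 window had both the highest Eomesa level and the lowest input of the 5.

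Across the 25 chromosomes, mean Eomesa ranged from 0.79 multiples on chromosome 4 to 1.09 multiples on chromosome 21, and input from 0.78 to 1.10 multiples on the same chromosomes. Peak heights changed little between chromosomes, with medians of 13 to 16 tags, and 14.5% to 20.1% of the rich windows of a chromosome overlapped a peak.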

How the data were processed

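The authors mapped ChIP-seq reads to the Zv9 zebrafish genome with Bowtie, keeping reads that fitted up to 2 places, called peaks with MACS against paired input, and kept regions that overlapped between both independent Eomesa reactions. The deposited signal tracks, written by MACS, hold the pileup of shifted tags per 5 bp, not scaled to depth, and the sources used here do not state which libraries each holds. The only other number in the deposited peak list is the width of each region in bp. No p-value was computed.

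Each track was divided by its genome-wide mean. Per peak, means, heights, summits (running mean over 25 bp), ratios and neighbour distances were taken, and per 1 kb window, means with a pseudocount of 0.5 multiples. Tags were estimated as summed signal over tag length (12335042 Eomesa, 18999490 input), with exact Clopper-Pearson 95% intervals for ratios. Scripts used Python 3.11.15, numpy 2.4.6 and scipy 1.17.1 and were tested on simulated data. Named peaks were the ChIP-qPCR regions, the 3 highest in summed signal, the 3 widest, the 3 highest and 3 lowest in ratio (at least 20 tags, with input), the 3 largest groups, the 5 richest windows outside peaks and the 6 tallest peaks of each gene list; further list genes were chosen after their values were seen. Members, lists and rules were chosen with earlier results of these data known. The Smad2 track, peak list and the authors' comparisons were not used, and some gene names and Foxh1 sites came from the study's annotation of regions bound by both factors. In the ectoderm list, 1 gene is not reported here and was left out of its counts.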

Additional observations from a re-analysis of the deposited data

How the results depend on the processing

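Of 35 alternatives over 7 results, 14 stayed within the interval or the 1.5-fold range set for that result and 21 did not, and the cause was not tested. The median of Eomesa over input, 9.23-fold, became 9.45-fold in peaks of at least 100 bp, 7.60-fold with a pseudocount of 0.5 multiples, 13.3-fold with input over 1 kb, 10.4-fold from the highest values and 7.69-fold from heights after Eomesa was spread to the input tag length. Past 8-fold lay 3663 peaks, and past 4-fold 5587. Rich windows outside peaks, 17577, numbered 34379 at 4 multiples and 3-fold and 10089 at 8 multiples and 4-fold. The nearest neighbour, 34.5 kb, lay at 47.5 kb among peaks of at least 100 bp, 58.3 kb with edges within 500 bp merged and 85.8 kb among peaks at or above the median height. An alternative chosen after seeing the data, without the second of each look-alike pair, gave 34.7 kb. The profile width, 84.6 bp, was 70 bp for the median profile, 317 bp on interval centres and 72.9 bp with each peak divided by its height. Peaks with more than 1 summit, 46.9%, came to 63.2% and 27.7% at dips of 20% and 60%, 69.6% without smoothing and 23.0% with summits of at least 10 tags. The richest 1% of windows, with 18.3% of Eomesa signal, held 10.3% in 5 kb windows, 17.1% where input exceeded 0.2 multiples and 17.0% in windows without a peak. No paired analysis was possible because each group has a single track without replicate numbers, and no replicate could be left out. Intervals of medians and of shares take peaks or windows as independent of each other. Intervals of ratios cover counting error of tags only, and no interval covers differences between libraries. At a tag or less of input a ratio is a value of low precision.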
